A study of Mus musculus with 24 samples.

Results

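The growth hormone (GH) signalling genes of mouse liver were examined for H3K27ac, the acetylation of lysine 27 of histone H3 that marks active promoters and enhancers. The genes were Ghr, Jak2, Stat5a, Stat5b, Igf1, Igfals, Socs2 and Cish, 8 of 22350 annotated protein-coding genes, and they were chosen for their place in the pathway, with earlier results of these data known. Every peak that overlapped the gene body or the 10 kb on either side of it was taken, on mouse genome mm9. Overlapping peaks of different lists were joined into regions, and 179 of the 119348 regions of the autosomes and X lay in these windows. In B6, 134 of 79818 male peaks and 133 of 82176 female peaks lay there, and in CAST 150 of 90228 and 125 of 84645.

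The livers came from male and female inbred mice, either C57BL/6J (written B6) or CAST/EiJ (written CAST), a strain derived from wild mice of another subspecies. The labels give an age of 8 weeks and name no treatment and no engineered allele. There were 20 livers in 4 groups of 5 and 4 input samples. The comparison of interest was whether active regulatory elements differ by sex, and whether they do so alike in both genetic backgrounds. Each deposited list merges the 5 livers of a group, so no value below has a spread between animals, no difference was tested, and counts are read against the same count over all regions or genes. The labels' strain field contradicts the title for 12 of the 24 samples, and the titles were used. The peak names of each list carry a single library code, although the lists are described as merged. Whole liver was taken, so a mark in fewer cells and a weaker mark per cell cannot be told apart. The lists had a median peak width of 578 to 680 bp and covered 65.3 to 72.8 Mb. Of 7 hepatocyte markers, 6 had a peak in their windows. The exception was Serpina1a, one of a family of near-identical genes. Over all cell types, 23 of 33 markers had a peak, including all 4 of endothelium. Of the 5 genes of other tissues, Myod1, Neurod1 and Pou1f1 had none, whereas Gh (558 to 2297 bp) and the heart gene Myh6 (0 to 1432 bp) had some. Of the lymphocyte markers, Cd3e had none, whereas Cd79a (2549 to 3492 bp) and Ptprc (0 to 1261 bp) had some. Of the 16 markers with enough cover to be compared, none differed by 1.5-fold between the sexes in both strains. The bile duct marker Sox9 did so in B6, with 3786 bp in males and 2390 bp in females (2818 and 2178 bp in CAST). In the Kupffer cell list, Clec4f had 0 and 690 bp in males and females of B6 and 217 and 525 bp in those of CAST, and Cd5l had 367 bp in B6 females alone. Csf1r had 2721 and 2071 bp, and 2929 and 2422 bp, and Emr1 and Marco had no peak. In the stellate cell list, Pdgfrb had 0 and 681 bp, and 219 and 530 bp, Des had 233 bp in B6 females alone and Lrat 231 bp in CAST females alone. Reln had 3669 and 3884 bp, and 3272 and 2626 bp. Of the 9 markers of both lists, 5 thus had more bases in females in every strain where they had a peak. All 5 had too little cover to be compared, and Cd5l, Des and Lrat had bases in a single group only. The markers of these lists with enough cover, Csf1r and Reln, did not follow. Csf1r had more bases in males of both strains, and Reln in B6 females and CAST males. The same count was not made over all genes, so this count of 5 has no background. The part of other cell types in the results was not tested.

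GH is secreted by the pituitary in pulses in males and more evenly in females, and this pattern drives most sex differences in liver gene expression. On hepatocytes it binds its receptor, GHR, which is held by the kinase JAK2. JAK2 phosphorylates STAT5A and STAT5B, which enter the nucleus as dimers and bind the palindrome TTCNNNGAA. Among their targets are Igf1 and Igfals, whose products circulate as the main endocrine arm of GH action, and Socs2 and Cish, whose products feed back to restrain the receptor.

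Most of these genes lay in densely acetylated windows. The share of a window under a peak, averaged over the 4 lists, was 27.3% at Cish, 22.9% at Igfals, 20.1% at Stat5b, 19.9% at Stat5a, 18.05% at Igf1, 15.3% at Socs2, 10.9% at Ghr and 7.04% at Jak2. The median of the 8 genes was 18.98%. The median over the 14913 protein-coding genes with enough cover to be compared (a mean of at least 1000 bp) was 8.07%, with an interquartile range of 4.88% to 12.6%. Cish stood at the 99.6th percentile of these genes and Igfals at the 98.0th, whereas Ghr stood at the 67.0th and Jak2 at the 42.1st. Cish had the largest share and Jak2 the smallest in all 4 lists, whereas the order of the genes between them changed from list to list.

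**Figure D1:**
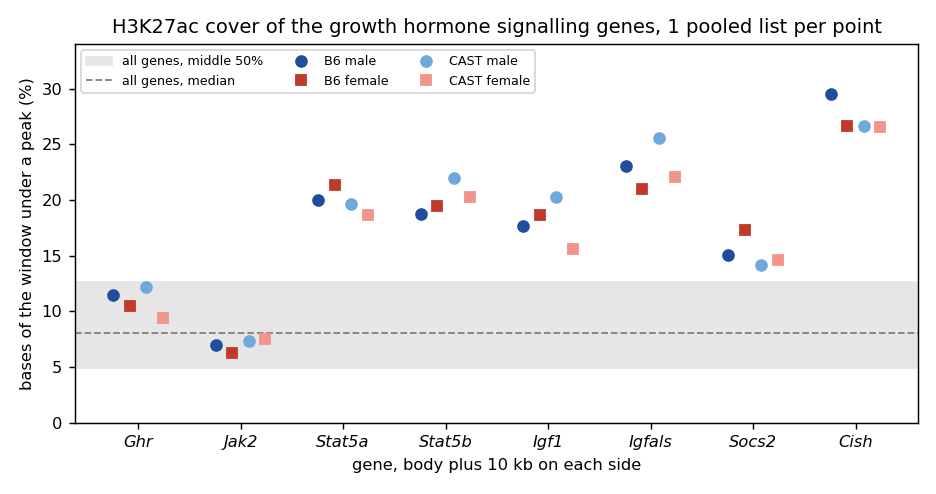
Percent of bases under an H3K27ac peak in the window of each gene (body plus 10 kb on each side), 1 point per pooled list, with the median and the interquartile range of all compared protein-coding genes as a dashed line and a grey band. The points of Cish lie highest, between 26.5% and 29.5%, those of Jak2 lowest, between 6.29% and 7.52%, and within a gene the 4 lists lie close together.

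No gene of the 8 reached a 1.5-fold difference in the covered bases of its whole window between sexes or strains in the lists as deposited. Under other settings 5 of the 8 did in at least 1 comparison. These were Igf1 with only peaks of at least 2-fold enrichment, Socs2 and Ghr in the upper 50% of each list by score, and Jak2 and Stat5a by number of peaks. The share of all genes past the fold was not computed under those settings, so this count of 5 has no background. With promoter and distal peaks apart, the distal peaks of Igfals covered 1357 bp in CAST males and 706 bp in CAST females, a ratio of 1.92, and 852 bp in B6 males, 1.59-fold less than in CAST males. The promoter peaks of Jak2 covered 3140 bp in CAST females and 1953 bp in B6 females, a ratio of 1.61. Over all compared genes, in the lists as deposited, 4.2% were higher by 1.5-fold in the B6 male list than in the B6 female list and 2.53% were lower. In CAST these shares were 6.82% and 1.15%. Past the same fold in both strains were 1.03% of genes for males and 0.322% for females, and past it in both sexes were 2.23% of genes for B6 and 4.44% for CAST. With backgrounds this small, a count of 0 among 8 genes does not set them apart. The median log2 male over female ratio of the 8 genes was 0.03 in B6 and 0.10 in CAST, beside 0.05 and 0.11 over all compared genes.

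**Figure D2:**
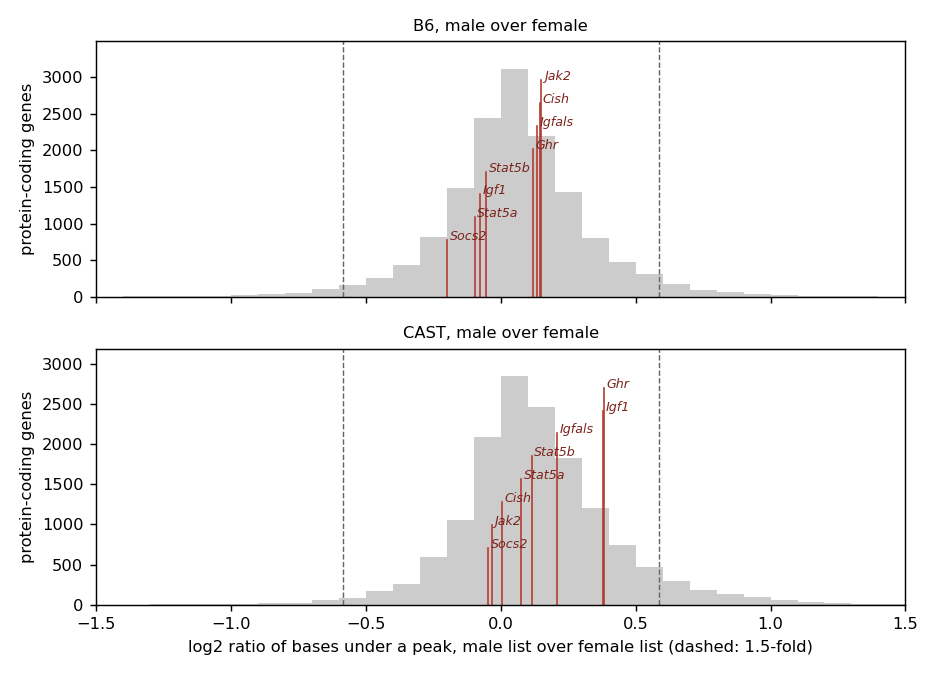
Distribution of the log2 ratio of covered bases, male list over female list, over 14913 protein-coding genes in B6 (upper panel) and CAST (lower panel), with 100 bp added to both sides of each ratio. Vertical lines give the 8 genes; all lie inside the dashed 1.5-fold limits, and Ghr and Igf1 stand at the 84.2nd and 84.0th percentiles in CAST.

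The receptor gene Ghr (ENSMUSG00000055737.6; chr15:3267760-3533492, minus strand) spans 266 kb and held 93 of the 179 regions. Peaks covered 11.4% and 10.5% of its window in males and females of B6, and 12.2% and 9.36% in those of CAST. These are 32677, 30076, 34873 and 26748 bp, and both male lists lay above both female lists. The log2 male over female ratio was 0.12 in B6 and 0.38 in CAST. Under 6 other settings it was above 0 in 3 in B6 and in all 6 in CAST. Most covered bases were distal, meaning more than 2.5 kb from any transcript start, with 28451 of the 32677 bp in B6 males and 23290 of the 26748 bp in CAST females. The log2 male over female ratio was 0.28 in B6 and 0.52 in CAST for promoter peaks, and 0.10 and 0.36 for distal peaks.

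The region over the main start of Ghr (chr15:3531397-3533784, with 5′ UTR) was called in all 4 lists. Its fold enrichment over input was 3.28 and 3.45 in males and females of B6, and 3.63 and 3.71 in those of CAST. By peak score it stood at percentiles 89.2, 89.7, 91.0 and 91.4 of the lists. The values differed little, and within each strain the female list was slightly higher. The highest-ranked distal region, by its mean score percentile over the lists (chr15:3414441-3414783), lay in an intron 117 kb into the gene, with values of 2.55, 2.53, 2.81 and 3.21 in the same order. By fold enrichment, peaks about 259 kb from the main start were higher, at 3.01, 4.43, 3.10 and 3.21 in the same order. The 4.43 of B6 females was the highest of the window in any list. The widest distal peaks, about 130 to 133 kb from the main start, measured 2382, 2047, 2594 and 1994 bp. Most other peaks of the gene body were short and weak. Among the B6 male peaks of its regions shared by the 4 lists the median fold enrichment was 2.18, against 3.04 over the genome.

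Ghr had the least uniform of the larger windows. Of its 93 regions, 28 were called in all lists (30.1%, 95% Wilson confidence interval 21.7 to 40.1) and 39 in a single list (41.9%, 32.4 to 52.1). Over all regions these shares were 40.4% and 32.4%, and over the 8 genes together they were 44.7% (80 of 179, 37.6 to 52.01) and 29.6% (53 of 179, 23.4 to 36.7). At the other 7 genes together, 52 of 86 regions (60.5%, 49.9 to 70.1) were called in all lists.

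Jak2 (ENSMUSG00000024789.6; chr19:29326318-29387570, plus strand), which encodes the receptor-bound kinase, had the sparsest window. Peaks covered 6.99%, 6.29%, 7.35% and 7.52% of it (males then females, B6 before CAST, the order used from here on for values given in fours), in 6, 7, 8 and 5 peaks. The region over its only annotated start (chr19:29325127-29327850) had fold enrichments of 4.27, 4.63, 5.24 and 4.39. Only the CAST female list had a peak over the start itself (-1.083 to 1.49 kb from it). In the other lists the start lay between 2 peaks. The nearest edges were at -0.326 and 0.047 kb in B6 males, -0.335 and 0.033 kb in B6 females, and -0.33 and 0.034 kb in CAST males. A distal region in an intron 13.6 kb downstream (chr19:29339115-29340722) was as strong as the promoter in B6, at 4.69 in males and 6.48 in females, and weaker in CAST, at 4.15 in males and 3.18 in females. Its percentile fell in the same way, from 85.4 and 92.6 in the B6 lists to 76.6 and 61.5 in the CAST lists. The B6 female value was thus above the male value and the CAST female value below it.

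The transducer genes Stat5a (ENSMUSG00000004043.8; chr11:100720665-100746483, plus strand) and Stat5b (ENSMUSG00000020919.5; chr11:100642045-100712038, minus strand) sit head to head, and 4 regions lay in both windows and were counted a single time. At Stat5a, peaks covered 19.99% and 21.4% of the window in males and females of B6, and 19.6% and 18.6% in those of CAST. At Stat5b the shares were 18.7%, 19.5%, 21.9% and 20.3%. In both genes the female list was the higher in B6 and the male list in CAST, with log2 ratios between -0.10 and 0.12.

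The region at the Stat5b start (chr11:100709548-100712733) had fold enrichments of 4.08, 3.95, 4.11 and 3.67, and the region just inside the Stat5a start (chr11:100720785-100722597) had 4.43, 3.82, 4.49 and 4.03. The male list was the higher in both strains at both starts. The strongest peak of the Stat5b window, at 9.43, 8.33, 8.44 and 7.47, lay over the start of the neighbouring gene Ghdc. The highest-ranked distal region of the Stat5a window lay over a UTR of the neighbouring gene Stat3, which encodes another transducer of the family, with values of 3.70, 4.05, 4.34 and 3.31. That of Stat5b lay over a coding exon of Stat5b itself (chr11:100652234-100653829), with values of 3.35, 3.51, 3.94 and 3.801.

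Igf1 (ENSMUSG00000020053.11; chr10:87321010-87399792, plus strand), which encodes insulin-like growth factor 1, had no peak over its main start in any list, and acetylation over later starts and through its introns. Peaks covered 17.7% and 18.7% of the window in males and females of B6, and 20.3% and 15.6% in those of CAST. The CAST male list was the highest of the 4 and the CAST female list the lowest. The log2 male over female ratio was -0.08 in B6 and 0.38 in CAST. With only peaks of at least 2-fold enrichment, the B6 ratio was -0.83. The region nearest to the main start (chr10:87321063-87321539) was weak, at 1.43, 1.54 and 1.52 in B6 males, B6 females and CAST males, and was not called in CAST females. A broad region of 3201 bp centred 2.04 kb downstream (chr10:87322253-87325453), which holds 4 of the 9 annotated Igf1 starts, was called in every list, at 1.97, 2.05, 2.36 and 2.12.

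Further into Igf1, a region centred 26.5 kb from the main start (chr10:87347090-87349552) had values of 2.40, 2.32, 3.02 and 2.97, higher in both CAST lists than in both B6 lists. The highest-ranked distal region, 57.2 kb into the gene (chr10:87378833-87379161), had values of 2.77, 2.86, 2.69 and 2.89 and hardly varied. Of the 25 Igf1 regions called in CAST, 8 were called in males only (32.0%, 17.21 to 51.6, beside 21.5% of all regions). In females only there were 0 of 25, with a Wilson upper limit of 13.3% and a limit of 12% by the rule of 3 counts, beside 14.1% of all regions. In B6 there were 4 male-only and 3 female-only regions of 26. The 8 CAST male-only regions were weak, with fold enrichments of 1.52 to 1.90.

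**Figure D3:**
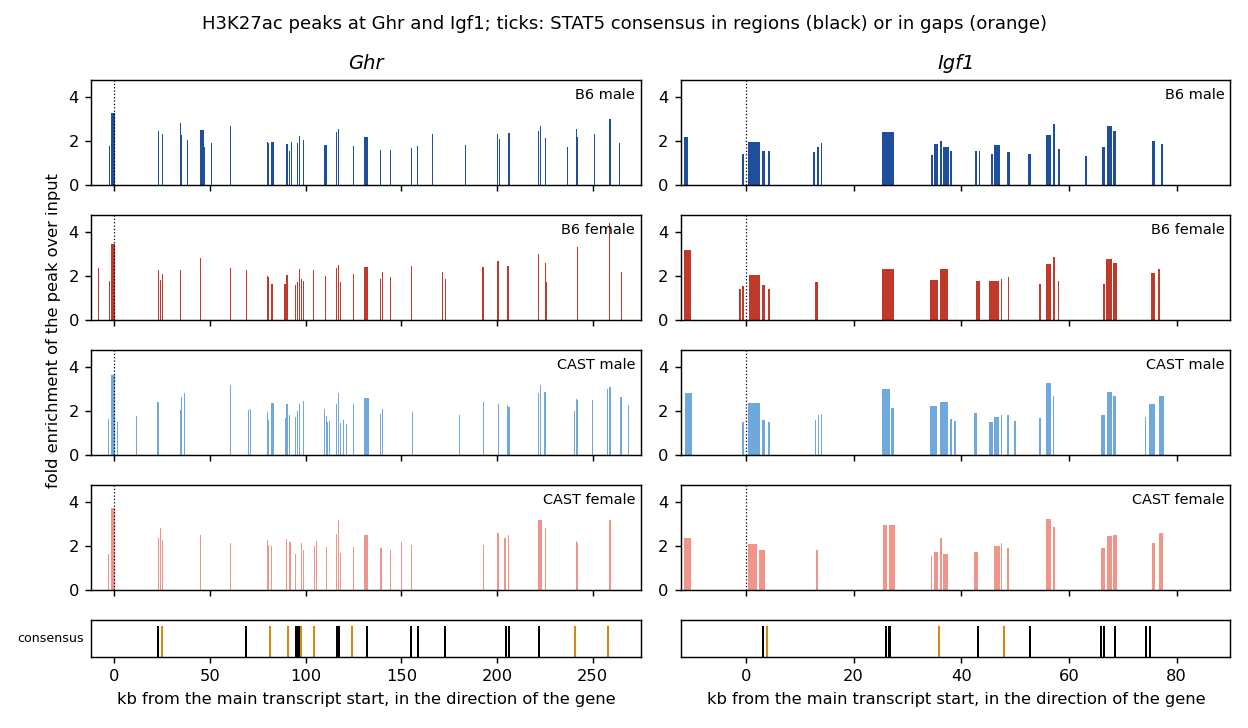
H3K27ac peaks at Ghr (left) and Igf1 (right) in the 4 lists: each bar spans a peak, its height is the fold enrichment over input, and the horizontal axis is the distance in kb from the main transcript start (dotted) in the direction of the gene. The lowest panels mark matches to the STAT5 consensus inside regions (black) and in gaps of up to 1 kb between regions (orange). The main start of Ghr carries a peak of 3.28 to 3.71 in every list, whereas no list has a peak over that of Igf1.

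Matches to the STAT5 consensus TTCNNNGAA were located in the mm9 sequence, which is that of B6. The motif is its own reverse complement, so a single search covers both strands. In the sequences printed here the matches are in capitals, and each sequence runs 5′ to 3′ along the strand of its gene. At Igf1 a pair of matches, with starts 15 bp apart, lay inside an intronic region joined from peaks of all lists (chr10:87364233-87365288). Its fold enrichments were 1.54, 1.78, 1.93 and 1.74. Only the B6 female peak (42.68 to 43.424 kb from the main start) held the whole pair. The B6 male peaks (42.55 to 42.942 and 43.235 to 43.475 kb) and the CAST male peak (42.441 to 42.969 kb) missed it. The CAST female peak ended inside it, at 43.082 kb. Another 2 matches lay in the gap that follows the broad region near the start. The flanking peaks there were 588, 588, 510 and 9421 bp apart.
Igf1 intron pair, chr10:87364869-87364912: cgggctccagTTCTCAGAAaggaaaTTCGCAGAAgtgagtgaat
Igf1 gap near the start, chr10:87325718-87325822: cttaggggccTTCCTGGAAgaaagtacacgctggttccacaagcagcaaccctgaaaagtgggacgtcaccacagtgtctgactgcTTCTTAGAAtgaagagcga

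Igfals (ENSMUSG00000046070.7; chr17:25014600-25018955, plus strand) encodes the acid-labile subunit that holds IGF1 in a long-lived complex in blood. Peaks covered 23.1% and 21.01% of its window in males and females of B6, and 25.6% and 22.1% in those of CAST, higher in the male list of both strains. The log2 ratios were 0.14 in B6 and 0.21 in CAST. The region over its start and coding exons (chr17:25013676-25016752) spanned 3077 bp, and its fold enrichment was 3.42, 2.9999, 3.70 and 3.33, again with the male list the higher in both strains. Of 5 regions, 4 were called in all lists. Of the 2 regions at the far end of the window, 1 lay 25 bp from a start of the neighbour Nubp2 and the other over a start of Spsb3, and the latter was the strongest of the window at 4.64, 4.02, 4.82 and 4.49. A consensus match lay in the start region, centred 43 bp upstream of the start.
Igfals, chr17:25014543-25014571: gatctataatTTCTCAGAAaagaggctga

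Socs2 (ENSMUSG00000020027.11; chr10:94847996-94879814, minus strand) encodes an inhibitor of GH receptor signalling. Peaks covered 15.0% and 17.3% of the window in males and females of B6, and 14.1% and 14.6% in those of CAST, so that the female list was the higher in both strains. The log2 male over female ratios were -0.20 and -0.05, the 13.7th and 22.2nd percentiles of all compared genes. Under 7 other settings the B6 ratio was below 0 in all (-0.75, past 1.5-fold, in the upper 50% of each list), whereas the CAST ratio was above 0 in 3. The difference lay in the distal peaks, which covered 4315 bp in males and 5805 bp in females of B6, and 3606 bp and 4048 bp in CAST. Promoter peaks went the other way, at 3474 and 3151 bp in B6 and 3717 and 3517 bp in CAST.

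The Socs2 start region (chr10:94878218-94880519) had fold enrichments of 3.78, 3.88, 4.37 and 4.06. It held a pair of identical consensus matches 11 bp apart, centred 51 and 62 bp upstream of the main start. In B6 females the region was 2 peaks, from -1.024 to -0.172 kb and from 0.06 to 1.244 kb. The pair and the main start lay between these, whereas a peak covered both in the other lists. Such a pair, with starts at most 30 bp apart, was present in 2 of the 179 regions (this one and the Igf1 intron), and in 0.300% of all regions. The promoter is shared with the transcript 5730420D15Rik. An intronic region 17.23 kb into the gene (chr10:94861701-94862823) was called in the female list of both strains and in neither male list. It measured 894 bp with a fold enrichment of 2.24 in B6 females and 310 bp with 2.095 in CAST females, at the 31.5th and 14.4th percentiles of these lists. These peaks ran from 16.668 to 17.561 kb and from 17.481 to 17.79 kb, so they overlapped only at their ends. A neighbouring region centred 18.2 kb into the gene (chr10:94861049-94861515) had peaks in both male lists and in B6 females, and lay close enough to be joined with it when peaks up to 500 bp apart were joined. A match lay in the B6 peak and outside the CAST peak. With an overlap of at least 50% of the shorter peak required, regions of females in both strains were 3, not 4.
Socs2 promoter pair, chr10:94879528-94879567: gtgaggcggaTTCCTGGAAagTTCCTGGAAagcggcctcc
Socs2 female-only region, chr10:94862634-94862692: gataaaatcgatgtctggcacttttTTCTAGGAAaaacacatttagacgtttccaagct

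Cish (ENSMUSG00000032578.6; chr9:107198357-107205115, plus strand), which encodes another inhibitor of the SOCS family, was the most densely and most uniformly marked. Peaks covered 29.5% and 26.6% of its window in males and females of B6, and 26.6% and 26.5% in those of CAST. All 5 of its regions were called in all 4 lists. The log2 male over female ratios were 0.15 and 0.01. The region over the main start (chr9:107197894-107198856) had fold enrichments of 2.93, 2.89, 3.19 and 3.02, and a broad region that follows it (chr9:107199127-107201761, with coding sequence) had 2.80, 3.05, 3.49 and 3.44. The strongest peak of the window, at 5.32, 4.87, 5.57 and 4.95, lay over exons of the neighbour Mapkapk3.

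Between the start region and the broad region of Cish lay a gap of 270 bp that no list covered. The distance between the flanking peaks was 318 bp and 325 bp in males and females of B6, and 290 bp and 362 bp in those of CAST. This gap held 4 consensus matches in 2 pairs, with starts 11 and 17 bp apart. In the annotation they lie 637 to 759 bp downstream of the main start, and 95 to 217 bp upstream of the start of the transcript Cish-201. The start of another transcript, Cish-002, lies between the pairs, the first 47 and 36 bp upstream of it and the second 58 and 75 bp downstream. Only the sites and a few flanking bases are shown.
Cish gap, first pair, chr9:107198985-107199014: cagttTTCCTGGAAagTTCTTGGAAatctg
Cish gap, second pair, chr9:107199093-107199122: ggTTCTAGGAAgatgaggcTTCCGGGAAgg

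H3K27ac sits on nucleosomes, and the DNA at active promoters is commonly free of them, so a gap between acetylated regions is where factor-bound sequence often lies. Gaps of up to 1 kb between neighbouring regions were therefore searched too, after the matches at Cish had been seen. Among 76 such gaps at the 8 genes, 15 held a match (19.7%, 12.3 to 30.0), beside 12.7% of 32838 gaps over the genome, which lies inside the interval. The Cish gap that prompted the search is among the 15 and holds 4 of their 20 matches. At least 2 pairs in a gap occurred in 4 of the 32838 gaps, of which the Cish gap was 1. This count too was made after the Cish matches had been seen, so it cannot set that gap apart.

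The region downstream of Cish was the higher-ranked of its 2 distal regions (chr9:107209678-107211700, between genes). Its fold enrichment was 3.19, 3.62, 3.70 and 3.61. It held 4 matches, of which 3 lay close together about 12.8 kb from the main start.
Cish distal region, chr9:107211118-107211222: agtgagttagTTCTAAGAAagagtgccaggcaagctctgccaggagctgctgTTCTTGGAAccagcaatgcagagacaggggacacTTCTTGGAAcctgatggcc

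**Figure D4:**
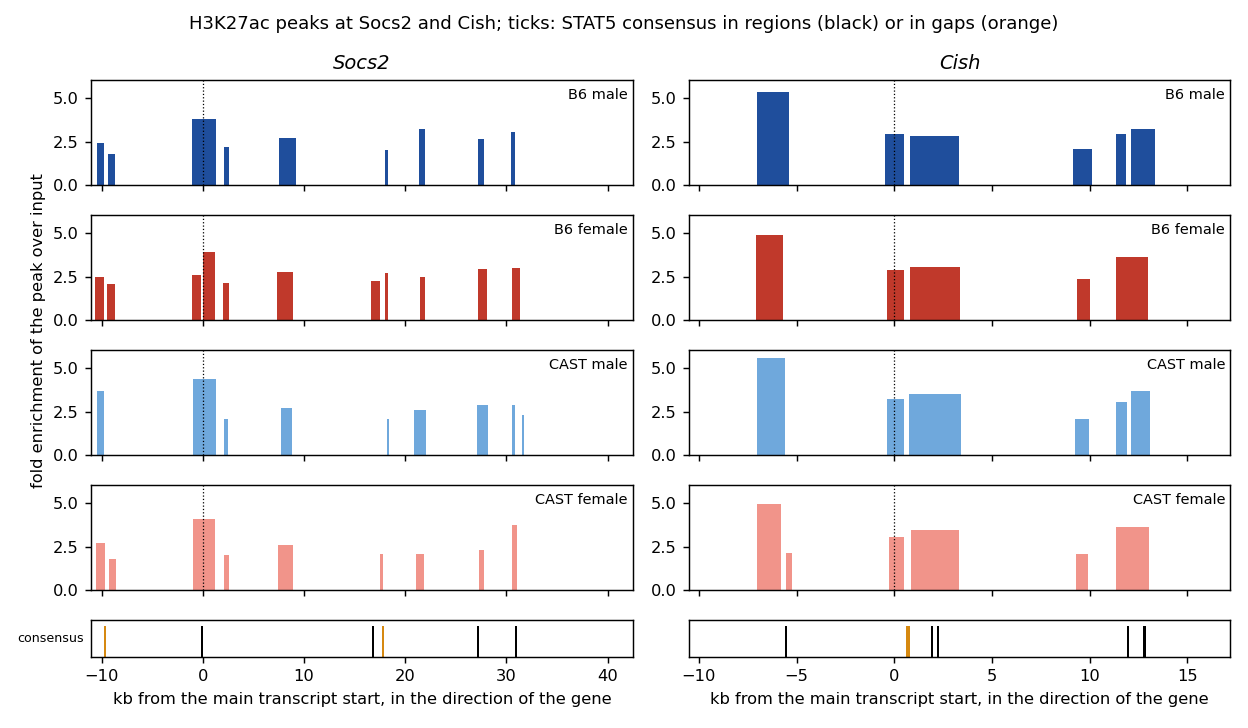
H3K27ac peaks at Socs2 (left) and Cish (right), drawn as bars of fold enrichment against the distance in kb from the main transcript start, with matches to the STAT5 consensus in the lowest panels (black in regions, orange in gaps between regions). About 17 kb into Socs2 both female lists have a bar, overlapping only at their ends, that the male lists lack, and the orange mark at Cish, made of 4 matches, falls between the 2 peaks at the start.

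Over all regions of the 8 genes, the consensus was present in the central 300 bp of 21 of 179 (11.7%, 7.80 to 17.3), beside 9.27% of all regions. Among regions called in all lists the shares were 15.0% of 80 (8.79 to 24.4) and 8.88%. The first interval includes its share over all regions, and so does the second. Over the whole length of the 179 regions the density was 0.453 matches per kb, beside 0.328 over all regions. By gene, the density was highest at Cish (0.830 matches per kb), Igfals (0.776) and Jak2 (0.662), and lowest at Ghr (0.284). A match is a stretch of letters and does not show that STAT5 was bound there.

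Regions called in 1 sex only were about as common at these genes as elsewhere. In B6, 24 of 147 regions were male-only (16.3%, 11.2 to 23.1) and 25 female-only (17.01%, 11.8 to 23.9), beside 17.4% and 17.5% of all regions called in B6. In CAST, 39 of 150 were male-only (26.0%, 19.6 to 33.6) and 17 female-only (11.3%, 7.197 to 17.4), beside 21.5% and 14.1%. All 4 intervals include the background share. In the upper 50% of each list by score, B6 female-only regions were 13 of 62 (20.97%, 12.7 to 32.6), beside 11.6% of all regions, which lies below the interval. Of the 39 CAST male-only regions, 24 lay at Ghr and 8 at Igf1. The Ghr share was 24 of 72 regions called in CAST (33.3%, 23.5 to 44.8), and the 21.5% of all regions lies below this interval. In both strains, 6 of 118 regions were male-only (5.08%, 2.35 to 10.7) and 4 female-only (3.39%, 1.33 to 8.39), beside 4.1% and 2.15% of all regions.

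The 6 regions of males in both strains lay in introns: 3 in Ghr (chr15:3294583-3295068, chr15:3411735-3412481 and chr15:3496352-3496817), 2 in Igf1 (chr10:87335692-87335979 and chr10:87359747-87360111) and 1 in Stat5b (chr11:100696498-100696917). Besides the Socs2 region, those of females lay in introns of Stat5b (chr11:100654087-100654374) and Ghr (chr15:3383401-3383819 and chr15:3433927-3434291). At the male-only Ghr region chr15:3411735-3412481 the B6 male peak (119.765 to 120.107 kb from the main start) and the CAST male peak (119.361 to 119.859 kb) overlapped only at their ends. With an overlap of at least 50% of the shorter peak required, regions of males in both strains were 5, not 6. None of the 10 was a promoter region. Their fold enrichments were low, from 1.39 to 2.66 for the male regions and from 1.71 to 2.24 for the female ones, and the highest score percentile among them was 56.1. The strongest male one, in the Ghr intron 35.3 kb from the main start, had 2.29 in B6 and 2.66 in CAST. Regions called in 1 sex were weaker than shared ones, here as elsewhere: the median percentile of B6 male-only regions was 14.3 (17.6 over the genome), and that of regions called in all lists was 58.5 in the B6 male list (68.3 over the genome).

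**Figure D5:**
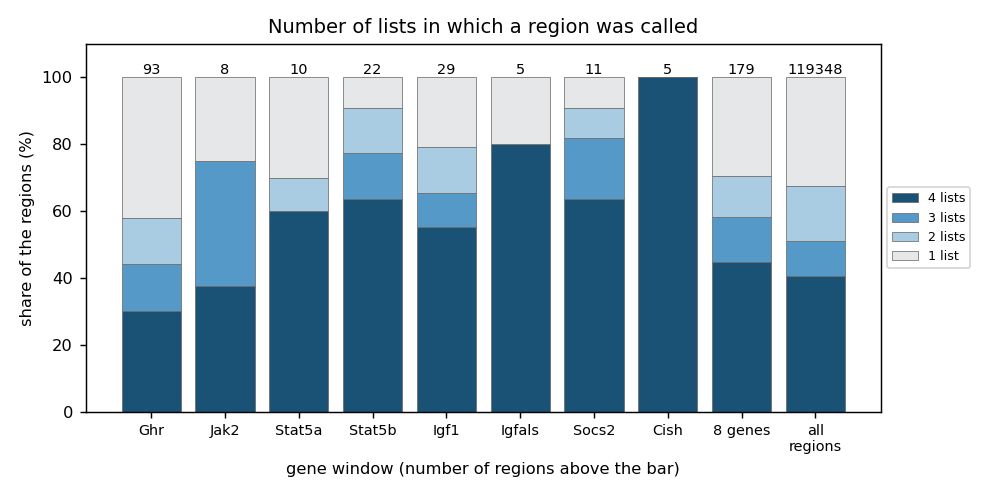
Share of the regions of each gene window called in 4, 3, 2 or 1 of the lists, with the number of regions above each bar; the 2 bars on the right give the 8 genes together and all regions. All 5 Cish regions and 4 of the 5 Igfals regions were called in 4 lists, whereas 39 of the 93 Ghr regions were called in 1.

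Strain-only regions, those that both lists of a strain held and the other strain lacked, were rare. Of B6 there were 5, among the 98 regions called in both its sexes (5.10%, 2.199 to 11.4), beside 8.4% of all such regions, which lies inside the interval. For CAST there were 3 of 94 (3.19%, 1.09 to 8.97), beside 11.8%, which lies above the interval. With only peaks of at least 2-fold enrichment this was lost, at 7 of 69 (10.1%, 5.002 to 19.5) beside 12.7%. The B6-only regions lay at Ghr (3), Igf1 (1) and Stat5b (1), and all 3 CAST-only regions lay at Ghr. Inside Ghr, the B6-only regions chr15:3280458-3281035 and chr15:3360070-3360650 had fold enrichments of 2.34 and 2.02 in males and 2.23 and 2.18 in females. The CAST-only regions chr15:3333913-3334191 and chr15:3381537-3381903 had 2.195 and 1.57 in males and 2.07 and 2.197 in females. The B6-only regions of Igf1 (chr10:87379698-87380078) and Stat5b (chr11:100698063-100698390) had 1.65 and 1.80 in males and 1.79 and 1.75 in females. A B6-only and a CAST-only region flanked each other upstream of Ghr, at chr15:3534150-3534463 and chr15:3534730-3535048. They had fold enrichments of 1.80 and 1.77 in B6 males and females, and 1.64 and 1.67 in CAST males and females. They lay 266 bp apart, and the first 365 bp from the start region called in all lists. With peaks up to 500 bp apart joined, B6-only regions were 4 and CAST-only regions 2. Peak numbers were missing from the B6 lists (599 in males and 579 in females) and not from the CAST lists, so some B6 peaks were removed after calling. None was missing at a strain-only region of these genes.

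Promoter regions made up 30 of the 179 (16.8%), beside 24.1% of all regions. Of these 30, 19 were called in all lists (63.3%, 45.5 to 78.1), beside 63.0% of all promoter regions. For distal regions the shares were 61 of 149 (40.9%, 33.4 to 49.0) and 33.3%. In regions that both sexes called, the B6 male peak was the wider in 46 of 98 (46.9%), beside 55.7% of all shared regions. In CAST it was the wider in 57 of 94 (60.6%), beside 59.96%.

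Of 61 other genes of the pathway, a list chosen with earlier results of these data known, all matched the annotation, 59 had a peak in their windows and 57 could be compared. In B6, 1 of the 57 was higher by 1.5-fold in males and 4 in females, beside 4.2% and 2.53% of all genes. In CAST 1 was higher in males and 2 in females, beside 6.82% and 1.15%. None was higher in males of both strains. Higher in females of both strains were Cux2, a female-biased repressor of male-biased liver genes, and Trim24, a transcriptional cofactor, beside 0.322% of all genes. Cux2 peaks covered 9481 bp and 18930 bp in males and females of B6, and 9409 bp and 18010 bp in those of CAST, ratios of 1.997 and 1.91 with no overlap between the sexes. Trim24 peaks covered 6550, 10233, 4907 and 9157 bp, ratios of 1.56 and 1.87. None of the 5 other STAT genes and none of the 9 other receptors passed the fold between the sexes in either strain. Among 12 other negative regulators only Ptpn11 did so, in B6 alone (1771 bp in males and 3422 bp in females, and 3526 and 3422 bp in CAST). Sst, which encodes somatostatin, an inhibitor of GH secretion, was the 1 gene higher in males of B6 (1675 and 1051 bp, and 937 and 884 bp in CAST). In the IGF system, Igfbp3, the main carrier of IGF1, was higher in females of B6 (1988 and 3352 bp) and level in CAST (2845 and 2781 bp). Igfbp7 was higher in males of CAST (8456 and 4745 bp) and level in B6 (5488 and 5921 bp).

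Between strains, 2 pathway genes were higher in CAST in both sexes, beside 4.44% of all genes, and 0 were higher in B6. Epor, the erythropoietin receptor gene, had 2012 and 1790 bp in B6 males and females and 4337 and 3689 bp in CAST, in a window that 3 other annotated genes share. Gh itself, which is expressed in the pituitary, had 558 and 753 bp in B6 and 1752 and 2297 bp in CAST, in a window shared with the B cell gene Cd79b. Prl and Igf2 had no peak in any list.

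The gene most like each member in its covered share over the 4 lists, at least 100 kb from all 8, was Zfp628 for Ghr, Tmem8 for Jak2, Hmga1 for Stat5a, F10 for Stat5b, Dock6 for Igf1, Kctd15 for Igfals, Kbtbd2 for Socs2 and Deb1 for Cish. Distances were 0.0382 to 0.0949 on the scale of log2(percent of window covered + 1).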

How the data were processed

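H3K27ac ChIP-seq of 20 mouse livers and 4 inputs was used as merged peak lists, 1 per strain and sex. Per the study's methods, the authors mapped B6 reads to mm9 and CAST reads to a CAST genome with coordinates converted to mm9, using Bowtie2, kept unique reads and called peaks with MACS2 over input. Each deposited peak carries a score (10 times the -log10 q-value), a fold enrichment ratio over input, a -log10 p-value, a -log10 q-value and a summit offset. All deposited peaks have a q-value under 0.05. The lists hold no read counts, so depth is unknown, and no other samples' columns were left out (0). CAST peaks depend on conversion between genomes, which can lose regions.

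From the lists, peaks overlapping by at least 1 bp were joined into regions with Python 3.11.15, numpy 2.4.6 and pandas 2.3.3. Genes and starts came from GENCODE on mm9, and sequence from the mm9 reference, so CAST sequence was not read. Promoter meant within 2.5 kb of an annotated start. Covered bases were compared in genes with a mean of at least 1000 bp, with 100 bp added to both sides of ratios over all genes, and a gene was called at 1.5-fold. With 1 pooled list per group no test was made, and 95% Wilson intervals (scipy 1.17.1) cover counting error only. Named were all 8 genes, their start regions, their best-ranked distal regions, all regions of 1 sex in both strains or of 1 strain, and pathway genes called in both strains or sexes. Pathway genes called in 1 strain only were named after seeing values. The members and lists were chosen with earlier results of these data known, and the gaps and the region 26.5 kb into Igf1 after seeing values. The counting steps were tested on simulated data. Other windows, thresholds, joins and overlaps were tried. Figures were drawn with matplotlib 3.10.9.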

Additional observations from a re-analysis of the deposited data

Results flagged for a closer look

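The log2 male over female ratio of covered bases had opposite signs in the strains at 4 of the 8 genes, with 1 pooled list on each side, so the difference was not tested. The CAST ratio minus the B6 ratio was 0.46 at Igf1, 0.17 at Stat5a, 0.17 at Stat5b and -0.19 at Jak2. The opposite signs did not hold under every setting. By number of peaks Stat5a was -0.17 in B6 and -0.78 in CAST, Igf1 was 0.33 and 0.47, and Jak2 turned in both, to -0.22 and 0.68. With flanks of 25 kb Jak2 was below 0 and Stat5b above 0 in both strains, with flanks of 5 kb Stat5a was below 0 in both, and in the upper 50% of each list Igf1 was above 0 in both. In the same way, 4 regions were called in 1 sex in B6 and in the other sex in CAST (3.39% of 118, beside 4.51% of all regions), and this too was not tested. The Igf1 region was called in B6 females (fold enrichment 1.63) and CAST males (1.71). So were both Ghr regions (1.88 in B6 females and 2.13 in CAST males, and 2.44 and 1.92). The Stat5a region went the other way, called in B6 males (2.05) and CAST females (1.84).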

How the results depend on the processing

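No paired analysis was possible because each list merges the 5 livers of a group, and for the same reason no liver could be left out. The alternatives were run on whole windows of the 8 genes and on their regions, not on promoter and distal bases apart or on other pathway genes. Ratios of whole windows, all under 1.5-fold, changed sign under some of them. The share over all regions under the same setting is given after each share. Regions called in all lists (44.7%) were 53.3% (all 52.8%) in the upper 50% of each list, 54.7% (45.5%) with peaks up to 500 bp apart joined and 60.5% (40.4%) without the Ghr window. In the upper 50% of each list, B6 male-only regions were 9.68% (11.8%), male-only in both strains 1.96% (3.13%) and female-only in both 0 of 51 (1.40%). With peaks joined, B6 female-only regions were 11.1% (15.2%) and male-only in both strains 2.198% (3.56%). CAST male-only regions were 18.4% (17.3%) with lists shortened to the shortest. At a fold enrichment of at least 2, CAST female-only regions were 19.1% (14.2%) and CAST-only regions 10.1% (12.7%). Without the Ghr window, chosen after seeing the data, B6 female-only regions were 11.5% (17.5%), CAST male-only 19.2% (21.5%) and CAST-only 0 of 57 (11.8%). The cause was not tested. Of the covered bases, on the log2 scale, Igf1 passed 1.5-fold at a fold enrichment of at least 2 (male over female in B6 -0.83, B6 over CAST in males -1.07), and in the upper 50% Socs2 did (-0.75 in B6 and 1.15 for B6 over CAST in females) and Ghr (-0.74 for B6 over CAST in males). By number of peaks the CAST male over female ratio was 0.68 at Jak2 and -0.78 at Stat5a, against -0.03 and 0.08 by covered bases. Over the 8 windows together the CAST male over female ratio (0.22) stayed between 0.15 and 0.26, and the B6 ratio (0.02) lay between -0.08 and 0.05. Gaps holding the consensus were 15.7% (9.74% of all) up to 500 bp and 26.3% (17.96%) up to 2 kb. At 2 kb the interval of 18.6 to 35.7 no longer includes the share over the genome. Both sets include the Cish gap that prompted the search.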
